A study of Mus musculus with 27 samples.

Results

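DNA methylation was examined at 10 mouse genes of the piRNA pathway: Piwil1, Piwil2 and Piwil4, which encode PIWI proteins; Pld6, Mov10l1 and Asz1, which act in piRNA biogenesis; and Tdrd1, Tdrd9, Mael and Ddx4, whose proteins gather in the germ granule called nuage. The genes were chosen by name, with earlier results of these data known. All windows of the deposited table that overlapped their GRCm38 bodies with 5 kb on either side were taken, 147 of 453239 nuclear windows. Of these, 10 were classed as the CpG-dense window at a gene end, 111 as body and 26 as flank. Windows are named as 100-CpG windows, so a short window is a CpG-dense one. All 10 members had a value in every library at the dense end window and in the body.

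Whole-genome bisulfite libraries came from mouse embryonic stem cells kept in 2i/Lif (D0) and from epiblast-like cells made from them (D1 and D2). TET_WT is the parental wild-type line of TET_KO, a line with Tet1, Tet2 and Tet3 knocked out, whose products oxidise 5-methylcytosine. DNMT_WT is a wild-type line as well, parental to a Dnmt triple knockout outside the scope of these results. With 3 libraries per line and day, 27 libraries fell into 9 groups. The labels do not say whether the 3 libraries of a group were separate cultures, and each genotype is a single line, so p-values reflect only how these libraries vary, which may be technical. The values are percentages with no counts, the depth is therefore unknown, and bisulfite sequencing reads 5-methylcytosine and 5-hydroxymethylcytosine alike. Neither cell identity nor the Tet deletion could be checked, because windows carry no expression and no coverage.

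As background, piRNAs are small RNAs of the germ line that guide PIWI proteins to transposon transcripts and, in fetal male germ cells, to transposon DNA that is then methylated. Many genes of the pathway have CpG-rich promoters that are methylated during implantation and demethylated in primordial germ cells. The conversion of naive stem cells to epiblast-like cells covers the first of these steps in culture.

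Promoter sequence differed widely among the members. RefSeq entries of GRCm38.p6 matched 9 of them, with Piwil2 unmatched. The median over 32851 RefSeq promoters of 300 bp (250 bases before the start site and 50 after) was 7 CpGs, with quartiles of 3 and 20. Ddx4 held 38, Mael 24, Mov10l1 and Tdrd1 20 each, Piwil1 and Pld6 18 each, Asz1 17, Piwil4 11 and Tdrd9 10. The hexamer CACGTG, the E-box, which is its own reverse complement and contains a CpG, was present in 7 of the 9 promoters at the most upstream start (Ddx4, Mael, Mov10l1, Piwil1, Pld6, Tdrd1 and Tdrd9), against 7.24% of 27025 genes counted the same way. Over all annotated starts it was in 8 of 13 member promoters and 7.15% of all promoters. TCCCGC on either strand, an E2F-type motif, was in 2 of 13 (Ddx4 and Mael), against 19.98% of all promoters. Shares over all promoters were not matched for CpG content, and the 9 members held 10 to 38 CpGs against the median of 7. These are letter matches, not sites of binding. The 250 bases before the start are printed for 4 members that span the range of CpG content and methylation, with the E-box in capitals: Ddx4 (chr13:112652311-112652560, minus strand), Mael (chr1:166238745-166238994, minus strand), Piwil1 (chr5:128735996-128736245, plus strand) and Tdrd9 (chr12:111971309-111971558, plus strand).
Ddx4: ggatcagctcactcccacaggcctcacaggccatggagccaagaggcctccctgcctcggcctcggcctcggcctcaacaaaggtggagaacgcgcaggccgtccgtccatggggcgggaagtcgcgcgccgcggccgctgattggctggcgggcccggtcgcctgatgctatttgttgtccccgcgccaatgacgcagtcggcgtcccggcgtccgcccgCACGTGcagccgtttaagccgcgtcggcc
Mael: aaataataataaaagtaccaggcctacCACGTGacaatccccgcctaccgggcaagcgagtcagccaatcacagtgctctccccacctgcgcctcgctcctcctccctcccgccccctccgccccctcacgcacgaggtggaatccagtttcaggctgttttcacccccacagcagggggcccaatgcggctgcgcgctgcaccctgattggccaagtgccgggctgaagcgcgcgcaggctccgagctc
Piwil1: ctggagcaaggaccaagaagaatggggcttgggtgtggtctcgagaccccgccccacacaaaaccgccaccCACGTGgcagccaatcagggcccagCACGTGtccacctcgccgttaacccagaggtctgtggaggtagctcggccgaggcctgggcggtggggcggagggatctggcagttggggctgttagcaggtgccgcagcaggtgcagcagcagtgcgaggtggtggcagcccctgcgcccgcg
Tdrd9: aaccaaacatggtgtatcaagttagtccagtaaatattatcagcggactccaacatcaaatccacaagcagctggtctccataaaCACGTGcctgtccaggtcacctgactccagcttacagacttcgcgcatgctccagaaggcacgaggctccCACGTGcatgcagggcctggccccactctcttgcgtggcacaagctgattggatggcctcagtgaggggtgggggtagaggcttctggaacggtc
In these 250 bases Ddx4 has 31 CpGs, Mael 18, Piwil1 16 and Tdrd9 8. Piwil1 and Tdrd9 each carry 2 copies of the E-box, Ddx4 and Mael 1 each.

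The dense end window of a gene was the shorter of the windows holding its first and its last base. Its length ran from 589 bp in Mael to 5564 bp in Asz1, with a median of 3170 bp. It was 2223 bp in Mov10l1, 2296 bp in Tdrd9, 2750 bp in Piwil1, 2943 bp in Tdrd1, 3397 bp in Piwil4, 4334 bp in Pld6, 4676 bp in Piwil2 and 5073 bp in Ddx4. The body windows had a median of 4129 bp. By length, the end windows of Pld6, Piwil2, Ddx4 and Asz1 were thus no denser than the median body window, and for them the name is only that of the class. For 8 of the 9 members with an annotated start site the window held that site. In Asz1, however, 228 of the 250 bases before the start lay in a separate window of 6662 bp. For Ddx4 the start lay in the neighbouring window of 373 bp (chr13:112652119-112652491), which lacked a value in 1 library and so was left out of the tests over complete windows. Pld6 and Tdrd1 likewise had a shorter window just inside the gene, of 917 bp (chr11:59786713-59787629) and 1047 bp (chr19:56826223-56827269). These short windows, chosen partly after the data were seen, are given beside the end windows. Piwil4 had a shorter window too, of 2506 bp, at its 3′ end. Some end windows reach a neighbour: Polr3d beside Piwil2, Flcn beside Pld6, Mlc1 beside Mov10l1 and Slc38a9 beside Ddx4.

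Short windows at or near the starts of Ddx4, Pld6 and Mael were less methylated than the bodies of these genes. In the 373-bp window at the start of Ddx4, a conserved RNA helicase of germ cells also known as Vasa, the TET_WT libraries read 3.13, 3.30 and 2.88% on D0, 4.70, 3.83 and 5.34% on D1, and 2.70, 13.6 and 8.21% on D2. The TET_KO libraries read 8.13, 5.55 and 9.13% on D0 and 6.26, 5.32 and 10.9% on D2. All 3 TET_KO libraries on D0 thus lay above all 3 of TET_WT, while on D2 the groups overlapped. The difference was 4.51 points on D0 (SE 2.06, adjusted p = 0.039) and -0.70 on D2 (SE 2.06, adjusted p = 0.74). In DNMT_WT the window read 0, 0.392 and 1.19% on D0 and 16.7, 12.8 and 8.95% on D2.

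The 917-bp window inside Pld6, which encodes the mitochondrial endonuclease of piRNA processing also known as Zucchini, was lower still on D0. TET_WT read 0.474, 0 and 0.533% on D0 and 4.92, 10.1 and 4.47% on D2. TET_KO read 5.21, 6.01 and 3.86% on D0 and 8.0, 7.46 and 8.72% on D2. The D0 groups did not overlap (difference 4.69 points, SE 0.94, adjusted p = 3.4e-05), and on D2 they did (1.58 points, SE 0.94, adjusted p = 0.11). No difference here reached the 10 points that a call required.

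Mael encodes a nuage protein needed for piRNA-directed silencing. Its 589-bp window at the start site (chr1:166238437-166239025) read 8.80, 8.11 and 13.5% in TET_WT on D0, 13.4, 6.83 and 12.9% on D1, and 21.9, 25.01 and 23.4% on D2. TET_KO read 26.4, 20.9 and 23.5% on D0, 29.6, 23.5 and 32.7% on D1, and 29.7, 25.3 and 28.6% on D2. The TET_KO stem cells had thus already reached the range of TET_WT on D2, and within TET_KO the 3 days overlapped. DNMT_WT went from 0, 0.568 and 1.99% on D0 to 18.0, 15.4 and 20.3% on D2. TET_KO exceeded TET_WT by 13.5 points on D0 (SE 2.00, adjusted p = 3.4e-07) and by 4.43 on D2 (SE 2.00, adjusted p = 0.038). From D1 to D2 TET_WT rose by 12.4 points (SE 2.00, adjusted p = 1.6e-06), whereas TET_KO changed by -0.75 (adjusted p = 0.72). TET_KO minus TET_WT in the gain from D0 to D2 was -9.03 in this window (SE 2.83, adjusted p = 0.0074), under 10 points and so not called.

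Tdrd1 encodes a multi-Tudor scaffold protein that binds PIWI proteins. Its 1047-bp window gave 14.8, 14.3 and 12.4% in TET_WT on D0, 35.6, 36.2 and 32.2% on D2, and 40.3, 43.7 and 39.2% in TET_KO on D0. Here the TET_KO stem cells lay above every TET_WT library of D2. By D2 TET_KO read 45.8, 55.5 and 49.0%, and DNMT_WT, at 2.28 to 3.99% on D0, read 31.7, 35.2 and 38.8%. TET_KO was 27.2 points higher than TET_WT on D0 (SE 2.15, adjusted p = 1.9e-12) and 15.4 points higher on D2 (SE 2.15, adjusted p = 2.0e-07).

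Among all 16219 windows shorter than 1 kb the median was 0.222% in TET_WT on D0 and 0.75% in TET_KO on D2. Mael lay above 96.2 to 97.5% of them in every group but DNMT_WT on D0, where it lay above 88.9%. The Ddx4 window lay above 88.1 to 95.3% outside DNMT_WT D0, and above 74.99% there. Pld6 moved from above 63.2% of such windows in TET_WT on D0 to above 92.9% on D2, and in DNMT_WT on D0 it lay above 13.5% of them. Outside that group, the 3 windows thus lay above the median of windows under 1 kb.

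**Figure D1:**
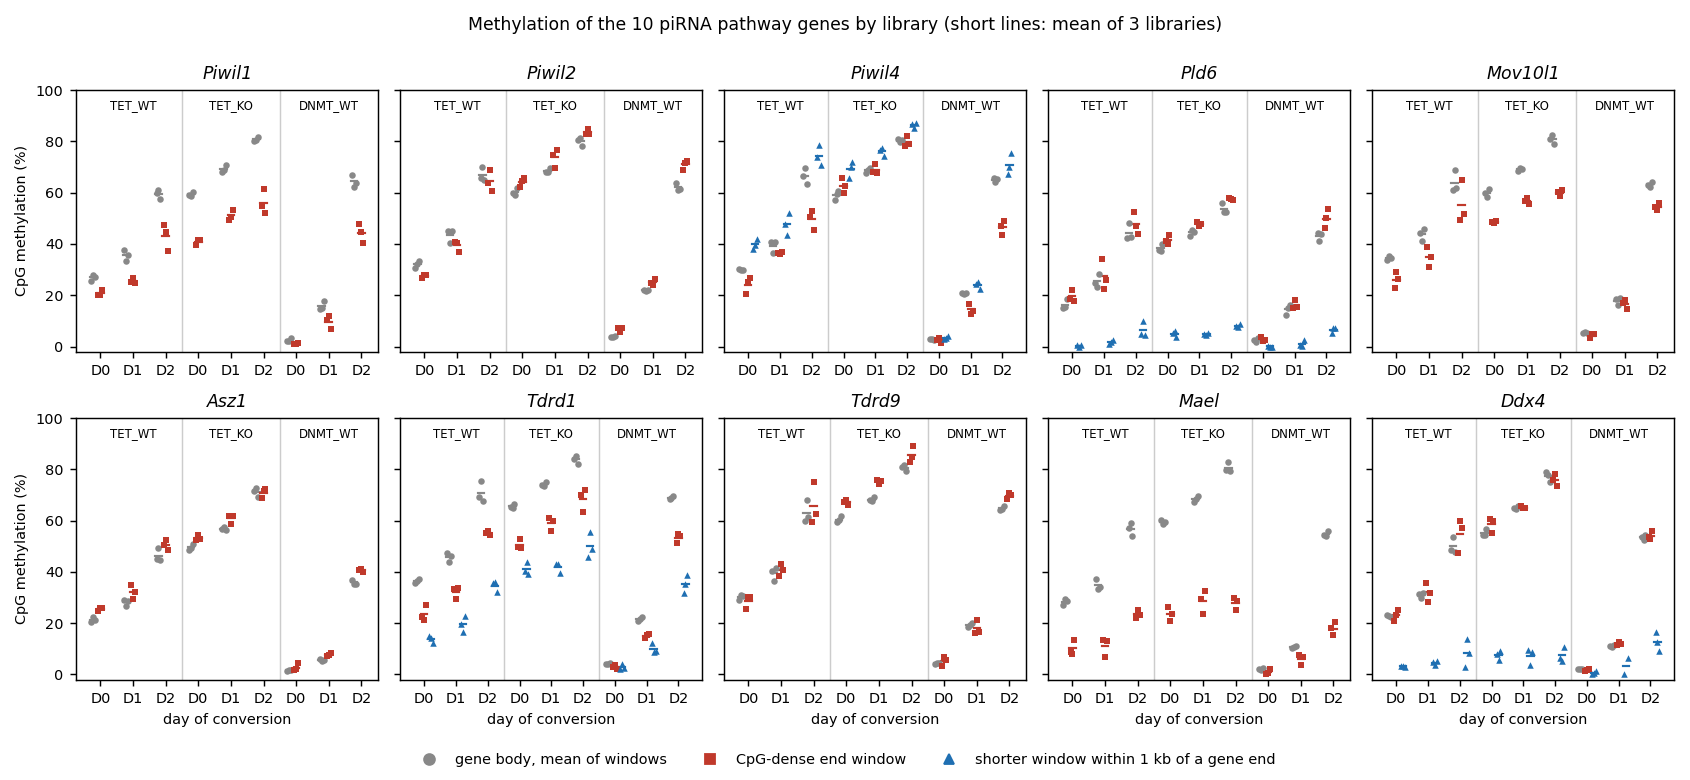
CpG methylation in percent for each of the 10 genes, by line and day, with 1 point for each of the 3 libraries and a short line at their mean. Squares are the CpG-dense end window, circles the mean of the other body windows, and triangles a shorter window within 1 kb of a gene end where there is one. The short windows of Ddx4 and Pld6 stay at or below 16.7% in all libraries, and the end window of Mael at or below 32.7%, while bodies reach 53.7% (Pld6) to 83.8% (Tdrd1) in TET_KO on D2. The body means of Pld6, Tdrd1 and Piwil4 include the windows shown as triangles.

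At the dense end windows the other members spanned a wide range. Tdrd9, which encodes a nuage helicase with a Tudor domain, was the highest of the 10 in TET_WT on D0, at 25.3, 30.2 and 30.2%, against 67.3, 68.2 and 66.0% in TET_KO. On D2 TET_WT read 59.4, 74.96 and 62.6% and TET_KO 82.9, 84.8 and 89.1%, again without overlap. TET_KO was 38.6 points higher on D0 (SE 2.59, adjusted p = 4.6e-14) and 19.9 higher on D2 (SE 2.59, adjusted p = 4.6e-08). Its promoter, printed above, had the fewest CpGs of the 9 matched members, 10 against a median of 7 over all promoters. A relation between promoter CpG content and methylation among the members was not tested.

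Piwil1 encodes the PIWI protein of pachytene spermatocytes, MIWI. Its end window read 20, 20.1 and 22.1% in TET_WT on D0, 47.5, 44.8 and 37.4% on D2, and 39.5, 41.5 and 41.6% in TET_KO on D0. TET_KO on D0 thus fell within the range of TET_WT on D2. The D0 difference was 20.1 points (SE 2.34, adjusted p = 3.4e-09). Piwil2 encodes MILI, and its end window went from 27.4 ± 0.67% (SD, n = 3) to 64.5 ± 4.02% in TET_WT between D0 and D2, with 64.2 ± 1.73% in TET_KO on D0.

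Piwil4 encodes the nuclear PIWI protein MIWI2. Its end window read 20.4, 25.1 and 26.8% in TET_WT on D0 and 50.6, 53.0 and 45.6% on D2, and 65.6, 59.9 and 62.6% in TET_KO on D0. On D2 TET_KO read 78.2, 82.1 and 79.1%, 30.1 points above TET_WT (SE 2.07, adjusted p = 2.1e-13). That was the largest D2 difference between the lines among the 10 end windows.

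Mov10l1 encodes the helicase that feeds piRNA precursors into processing. TET_WT read 22.9, 29.1 and 26.2% on D0 and 49.2, 65.0 and 51.6% on D2, while TET_KO read 48.4, 48.2 and 49.1% on D0 and 60.4, 58.7 and 60.9% on D2. The groups were separate on D0 (22.5 points, SE 2.62, adjusted p = 3.6e-09) and overlapped on D2 (4.78 points, SE 2.62, adjusted p = 0.083). The end windows of Asz1, which encodes a mitochondrial germ-granule protein, and of Tdrd1, Pld6 and Ddx4 had TET_WT means of 19.5 to 25.4% on D0 and TET_KO means of 41.5 to 58.5%. In the order of TET_WT means on D0, from Mael at 10.1 ± 2.91% through Pld6 at 19.5 ± 2.22% and Piwil1 at 20.7 ± 1.15% to Tdrd9 at 28.6 ± 2.82%, the libraries of Mael lay below those of the other 9, and every other neighbouring pair overlapped.

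Set against all genes, the members' median end window lay above the median of all genes in each of the 9 groups, and their median body in each but DNMT_WT on D0. In TET_WT on D0 the members' median end window was 23.8%, and the median of 21157 genes was 9.21% (quartiles 0.50 and 21.3%). Window length was not matched in this or any later comparison with all genes. In TET_KO on D0 these medians were 51.9 and 24.7%. Body medians were 29.2% for members and 22.9% for 19304 genes in TET_WT on D0, and 59.5 and 51.2% in TET_KO. In DNMT_WT on D0 the members' medians were 2.74% at ends and 2.73% in bodies, against 0.96 and 2.90% over all genes. Calls required both an adjusted p under 0.05 (Benjamini-Hochberg, over the whole table) and a difference of 10 points or more.

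TET_KO exceeded TET_WT at the end windows of 10 of 10 members on D0, where 56.8% of genes were called higher, of 10 on D1 (56.1%) and of 7 on D2 (48.1%), the 3 others being Pld6 at 9.75 points, Mov10l1 and Mael. The members' median difference was 27.4, 27.7 and 16.2 points on the 3 days, against 14.1, 13.7 and 9.22 over all genes. In the bodies 10 of 10 were higher on D0 (96.9% of genes), 10 on D1 (96.9%) and 9 on D2 (89.5%), with Pld6 at 9.34 points. That Pld6 value includes the 917-bp window, at 6.49% in TET_WT and 8.06% in TET_KO on D2. Its longer body windows averaged 59.99 and 66.7% in TET_WT and 70.2 and 82.9% in TET_KO. Body counts stood at the background. The whole table moved as well: the library median over all windows differed by 30.38 points between the lines on D0, and relative to it 2 end windows were called lower (Mael at -16.9 points and Piwil1 at -10.2), none was called higher, and no body was called. The share of all genes called relative to the library median is not given. The median end window of all genes, at 14.1 points, also lay below 30.38, and Mael, at 13.5 before centring, lay near that median.

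From D1 to D2 the end windows of all 10 members rose in TET_WT (50.5% of genes) and in DNMT_WT (62.0%), and so did all 10 bodies (92.7 and 97.8%). The members' median rise at end windows was 20.3 points in TET_WT and 36.2 in DNMT_WT, against 10.2 and 18.7 over all genes. The largest was in Tdrd9 in DNMT_WT, from 16.0, 21.2 and 16.6% to 68.4, 70.9 and 70.0%. In TET_KO 3 end windows rose (34.2%), those of Piwil4, Tdrd9 and Ddx4, and 8 bodies (60.0%); 4 further end windows lay between 9.36 and 9.98 points, so the count rests on the 10-point rule. Without TET_KO D1 replicate 1 it was 7, and it was 5 without TET_KO D1 replicate 3 or without TET_KO D2 replicate 1. Over this day the median of a library rose by 22.39 (TET_WT), 12.78 (TET_KO) and 40.47 points (DNMT_WT). Relative to them the end window of Mael changed by -10.0 points in TET_WT, -13.5 in TET_KO and -28.6 in DNMT_WT, and that of Tdrd9 by 11.4 in DNMT_WT. The median rises at the end windows of all genes also lay below these library medians, at 10.2 points in TET_WT, 6.62 in TET_KO and 18.7 in DNMT_WT.

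The first day moved less. From D0 to D1, 3 end windows rose in TET_WT (11.7% of genes), those of Piwil2, Piwil4 and Tdrd9, 1 rose in TET_KO (8.01%), that of Piwil1, and 7 in DNMT_WT (22.7%), where the shortest window within 1 kb of a gene end gave 4. For that shortest window the share of all genes over this day is not given. In bodies the counts were 1 in TET_WT (22.1%), 0 in TET_KO (4.24%) and 7 in DNMT_WT (64.4%). All 10 TET_KO bodies passed the adjusted p of limma alone, at 6.13 to 9.96 points, and all 10 had an unadjusted p under 0.05. The share of all genes at either rule is not given, so this count describes the members only. The median rise of all bodies was 7.38 points, against 8.81 in the members. Without TET_WT D1 replicate 2 the TET_WT counts were 6 at end windows and 6 in bodies, and 2 bodies passed without TET_WT D0 replicate 3. Leaving out TET_KO D0 replicate 3 gave 2 end windows and 4 bodies in TET_KO, leaving out TET_KO D1 replicate 2 gave 2 and 2, leaving out TET_KO D1 replicate 1 gave 2 bodies, and leaving out TET_KO D0 replicate 1 or D1 replicate 3 gave 0 end windows.

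The wild-type lines began far apart and ended close. DNMT_WT was lower than TET_WT at 9 end windows on D0 (45.7% of genes), with Mael at -9.27 points, and at 9 on D1 (41.5%), and in 10 bodies on D0 (86.3%) and 10 on D1 (76.4%). On D2 limma called 0 end windows (3.87% of genes were lower), with 3 past an unadjusted p of 0.05 and the same number past the adjusted p. The share of all genes past either p alone is not given. On the same day 1 body was called (2.25%). That body was Asz1, at 37.0, 35.3 and 35.5% in DNMT_WT and 45.1, 49.3 and 44.6% in TET_WT, a difference of -10.4 points (SE 1.15, adjusted p = 1.0e-07), and its end window differed by -9.86. The Asz1 end window was called, giving a count of 1, without DNMT_WT D2 replicate 2 or without TET_WT D2 replicate 3, and no body was called without TET_WT D2 replicate 2. The D0 to D2 gain of DNMT_WT exceeded that of TET_WT at 9 end windows (43.8%) and 9 bodies (89.0%). The gain of TET_KO was smaller than that of TET_WT at 6 end windows (20.8%) and 6 bodies (55.6%). TET_WT is the comparison group of both gains and of both line contrasts.

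**Figure D2:**
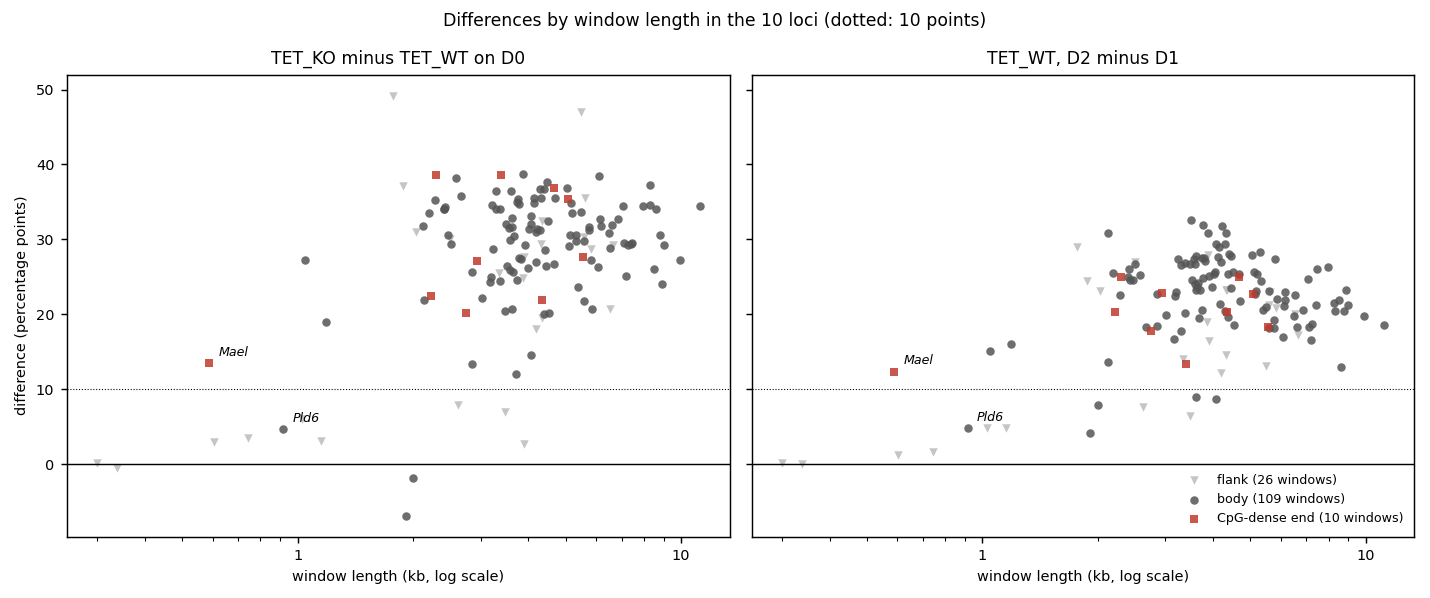
Difference in percentage points against window length (log scale) for the 145 member windows with a value in every library, by class, for TET_KO minus TET_WT on D0 and for D2 minus D1 in TET_WT. Of the 6 windows under 1 kb, Mael lies at 13.5 and 12.4 points, the short Pld6 window at 4.69 and 4.8, and the lowest, a flank of Mov10l1, at -0.53 and 0.033. Of the 139 longer windows, 9 lie below Mael in each plot, and on D0 2 Mov10l1 body windows near 2 kb lie below 0.

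Within single genes, the end window departed from the body in some members and not in others. In Mael end minus body was -18.3 points in TET_WT on D0 (SE 1.48, adjusted p = 1.3e-11) and -33.2 on D2. In TET_KO it was -35.9 on D0 and -52.8 on D2 (SE 1.48, adjusted p = 3.3e-22). The body of Mael in TET_KO on D2 read 79.8, 82.7 and 79.5%, and the windows on either side of the dense one averaged 77.2 and 78.3%. In Tdrd1 end minus body ranged from -15.6 to -12.9 points in these 4 groups. In Asz1, Pld6, Tdrd9 and Ddx4 it ranged from -1.56 to 6.81. The body of Pld6, however, is the mean of 3 windows, among them the 917-bp one. In TET_WT on D0 these averaged 0.336, 22.1 and 26.5%, beside an end window at 19.5%. In TET_KO on D2 they averaged 8.06, 70.2 and 82.9%, beside 57.5%. The end window of Pld6 thus lay below its longer body windows there, and end minus body without the 917-bp window was not tested.

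Calls of an end window below its body numbered 2 of 10 in TET_WT on D0 (52.6% of 19035 genes), Mael and Tdrd1, and 4 on D2 (62.8%), with Piwil1 and Piwil4 added. They numbered 4 in TET_KO on D0 (61.9%) and 4 on D2 (63.4%), in each case Mael, Mov10l1, Piwil1 and Tdrd1, and 4 in DNMT_WT on D2 (62.2%). The members' median of end minus body was -5.34 points in TET_WT on D0, against -11.2 over all genes, and 3.25 in TET_KO on D0, against -23.6. With the shorter windows in mind, these counts describe the fixed end window and not the start of Ddx4 or Pld6. For Pld6 they also rest on a body that includes its 917-bp window, so they may miss an end window below the rest of the gene.

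In some members the end window differed from its body in how far it moved. By the adjusted p alone this held in 5 of 10 members for TET_KO minus TET_WT on D0 and in 7 on D2, and from D1 to D2 in 3 in TET_WT and 7 in DNMT_WT. The share of all genes at that rule is not given, so these counts describe the members only. For TET_KO minus TET_WT on D0 the members' median was -0.35 points, against -12.2 over all genes. Fewer members reached 10 points. Between TET_WT and TET_KO on D0 the end window gained less than the body in 2 (53.8% of genes), Mael at -17.6 points (SE 2.10, adjusted p = 2.4e-08) and Piwil1 at -12.3 (SE 2.3, adjusted p = 2.8e-05). On D2 it was less in 2 (40.1%), Mael at -19.6 and Mov10l1 at -12.1, and more in 1 (3.62%), Piwil4. Without TET_WT D2 replicate 2 the Mov10l1 value was -9.68, under the 10-point rule. From D1 to D2 it gained less in 1 in TET_WT (47.1%), Piwil4 at -13.8, and in 3 in DNMT_WT (57.5%), Mael at -32.2, Piwil1 at -14.1 and Piwil4 at -12.3. The TET_WT count was 2 without TET_WT D1 replicate 2 or without TET_WT D2 replicate 3.

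Piwil4 differed between the lines in this respect. In TET_WT on D2 its end window read 50.6, 53.0 and 45.6% beside a body of 66.5, 69.6 and 63.5%, and DNMT_WT read 47.1, 43.4 and 48.9% beside 65.8, 64.3 and 65.2%. In TET_KO on D2 the end window, at 78.2, 82.1 and 79.1%, overlapped the body at 80.8, 79.6 and 80.7%. The 3 lines thus had an end minus body of -16.8 (TET_WT), -18.6 (DNMT_WT) and -0.53 points (TET_KO). TET_KO exceeded TET_WT in this measure by 16.3 points (SE 2.03, adjusted p = 8.2e-08). On D0 the same contrast was 9.62 (SE 2.03, adjusted p = 0.00012), and the gain from D0 to D2 differed by 6.64 (SE 2.87, adjusted p = 0.052).

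**Figure D3:**
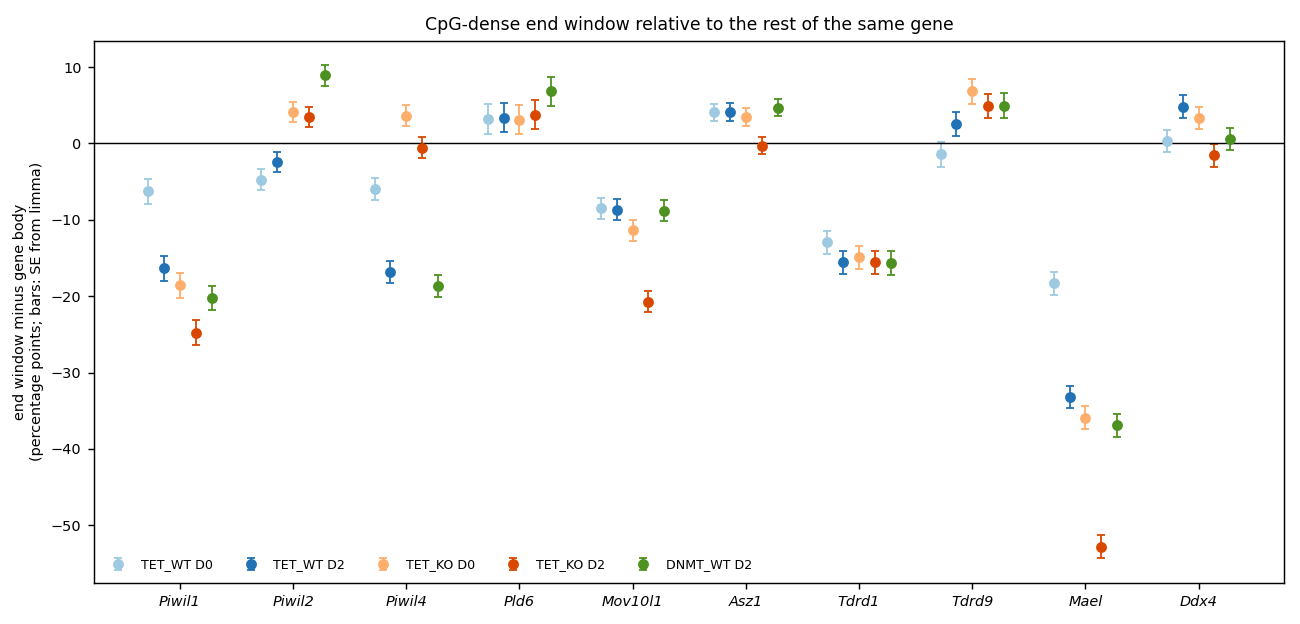
End window minus gene body in percentage points for each member, in 5 groups, with the SE from limma. Mael lies lowest in each group shown, from -18.3 in TET_WT on D0 to -52.8 in TET_KO on D2, and Piwil4 lies at -16.8 and -18.6 in the wild-type lines on D2 and at -0.53 in TET_KO.

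When the shortest window within 1 kb of either gene end was used and missing values were allowed, 8 of 10 members were higher in TET_KO on D0 (46.2% of 21390 genes), and 8 rose from D1 to D2 in TET_WT (40.1%) and in DNMT_WT (49.6%). The 2 that did not were Ddx4 and Pld6 in each contrast. In DNMT_WT the Ddx4 window gained 9.69 points from D1 to D2 (SE 2.3, adjusted p = 0.00028), with 1 of the 3 D1 values missing.

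Across the loci, 106 of 109 complete body windows were higher in TET_KO than in TET_WT on D0, where 92.9% of all windows were. The 3 exceptions, named after their values were seen, were the short Pld6 window and 2 adjoining windows of Mov10l1. The first of these (chr15:89036262-89038173, 1912 bp) averaged 66.0 ± 1.55% in TET_WT and 59.2 ± 6.64% in TET_KO on D0, a difference of -6.86 points (SE 3.42, adjusted p = 0.057). The second (chr15:89038181-89040182, 2002 bp) averaged 55.3 ± 6.72 and 53.4 ± 12.2%. In DNMT_WT on D0 the first averaged 19.9 ± 3.20%, above 99.3% of all windows, while the median Mov10l1 body window was at 3.44%. It was the highest in that group of the 145 member windows with a value in every library. The top of 145 windows ranks high among all windows whatever the genes, so the rank is descriptive only. The neighbouring window upstream (chr15:89032164-89036236) had 15.9 ± 1.2% in DNMT_WT and 53.5 ± 4.28% in TET_WT, and was 14.5 points higher in TET_KO (SE 1.92, adjusted p = 4.2e-08). Windows inside Tdrd9 (chr12:112020097-112021284) and Tdrd1 (chr19:56848119-56850973) were also picked as among the highest of the 145 in DNMT_WT on D0, at 14.7 ± 0.52% and 9.90 ± 2.63%. In TET_WT on D0 they averaged 53.1 ± 6.0% and 54.4 ± 3.89%.

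**Figure D4:**
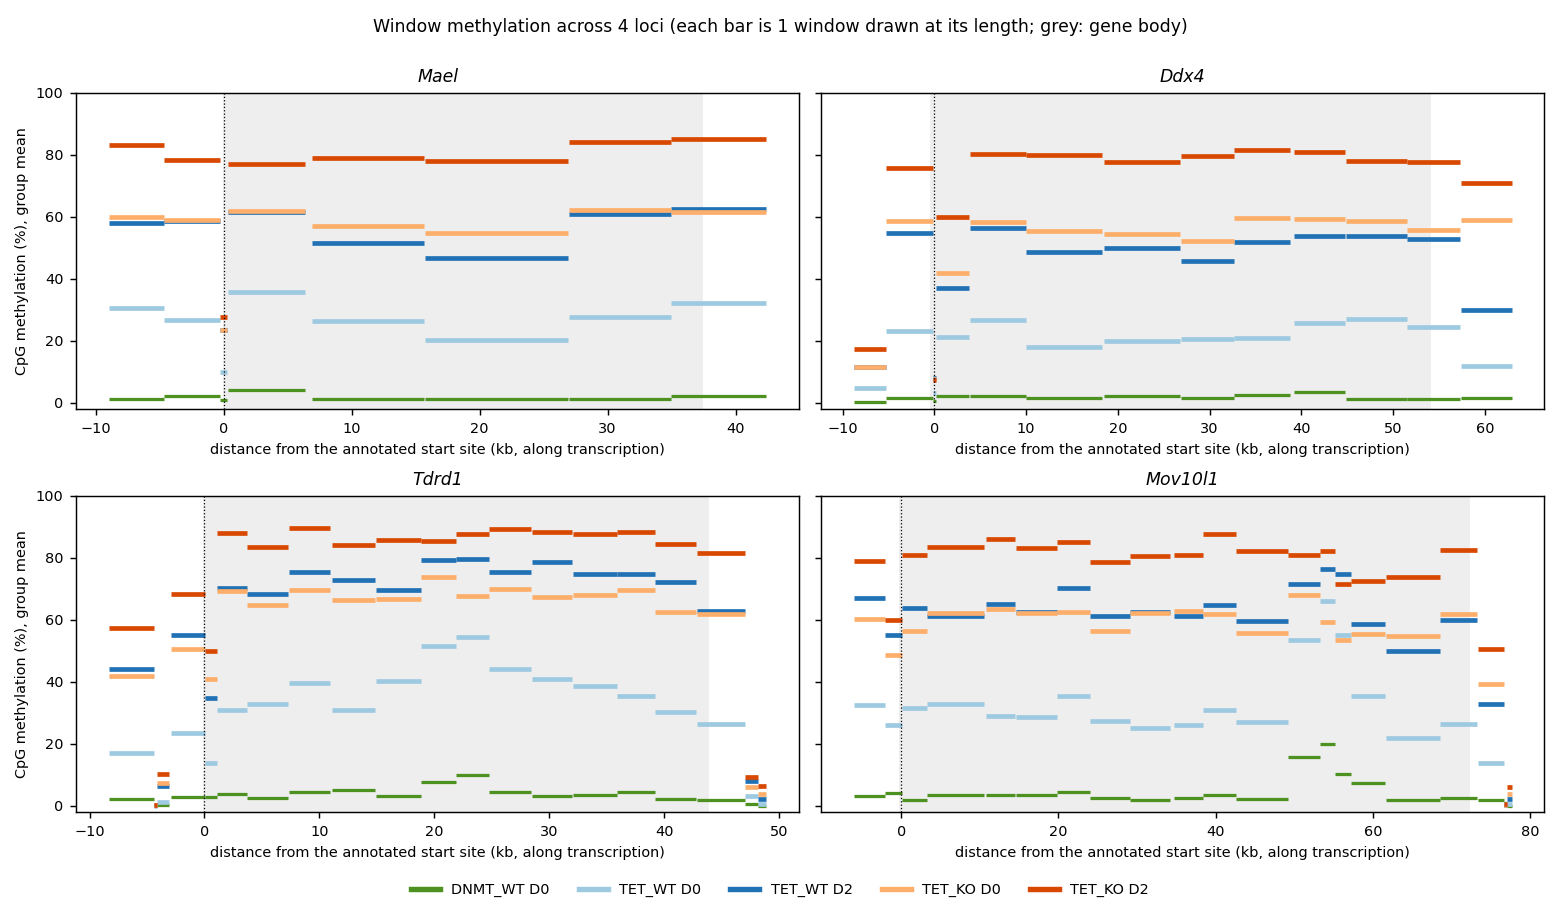
Group mean methylation of each window along Mael, Ddx4, Tdrd1 and Mov10l1, drawn at its length against the distance from the annotated start site in kb, with the gene body in grey. The dip at the start is narrow in Mael and Ddx4, and Mov10l1 has raised DNMT_WT and TET_WT windows on D0 towards its 3′ end, the highest at 19.9% and 66.0%.

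A list of 20 other piRNA pathway genes held 19 with an end window value, all but Mybl1. TET_KO was higher on D0 at 13 of 19 end windows (median difference 19.96 points; 56.8% of all genes were called) and in 20 of 20 bodies (96.9%). From D1 to D2 TET_WT rose at 12 of 19 end windows (median 16.8; 50.5%) and in 20 of 20 bodies (92.7%). The 4 lowest end windows in TET_WT on D0 were those of Exd1, which encodes an exonuclease-domain protein, at 0.263 ± 0.314%, of Wdr77 and Prmt5, which form an arginine methyltransferase complex, at 0.295 ± 0.279% and 0.836 ± 0.261%, and of the transcription factor gene Tcfl5 at 1.03 ± 1.00%. Their windows measured 563, 599, 1527 and 236 bp, and none was called on D0, with Prmt5 at 4.57 points. The 4 highest were those of Tdrd7 (26.9 ± 3.29%), Tdrd6 (28.4 ± 1.49%), Pnldc1, the trimming nuclease of piRNA ends (34.0 ± 1.57%), and Henmt1, the methyltransferase of piRNA ends (39.7 ± 3.37%), and all 4 were higher in TET_KO, by 34.9, 34.4, 36.5 and 20.8 points. Of 12 meiotic genes, 10 end windows were higher in TET_KO on D0 (median 24.5 points; 56.8% of all genes) and 8 rose from D1 to D2 in TET_WT (median 15.2; 50.5%), beside 12 bodies (96.9%) and 11 (92.7%). Body counts of both lists stood near the share of all genes.

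The 6 genes with end windows most like the members' median profile over the 9 group means were 4933421I07Rik, at a root mean square distance of 1.13 points, 1700029F12Rik at 1.31, Bcl2l10 and Gnb5 at 1.32, which share a window, Cndp1 at 1.36 and Cyp2a5 at 1.39. The members' own distances ran from 1.2 points in Tdrd1 to 26.3 in Mael, and the median of all other genes was 23.6. The profile was made from these same members, which by itself draws them nearer to it than other genes.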

How the data were processed

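Per the labels, DNA was sheared, ligated to methylated adapters, bisulfite converted and amplified. Per the submitters' processing notes, reads were processed with Trim Galore 0.6.6, cutadapt 2.3 and Bismark 0.23.0 on GRCm38. The authors deposited a percent of CpG methylation per window in each library, without counts. How windows were filled, and any coverage filter, is not given in the sources used here, so a thinly covered window cannot be told from a deep one. All 27 value columns matched a sample label.

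Gene positions came from the RefSeq table of GRCm38.p6 (21883 protein-coding genes), and strand and start sites from the RefSeq promoter table. Tests used percentages in the 444250 nuclear windows with every value (447511 with at least 2 values a group for the short windows). Body values are unweighted means of windows overlapping the gene, without the end window. The shorter windows of Pld6 (917 bp), Tdrd1 (1047 bp) and Piwil4 (2506 bp) count among the body windows of these genes. The model was limma 3.58.1 in R 4.3.3 (lmFit, eBayes with trend), with 9 group means and 18 residual degrees of freedom, two-sided, fitted and adjusted by Benjamini-Hochberg over all windows, all 19304 bodies or all 19035 differences. A call needed an adjusted p under 0.05 and 10 points. Deviations of libraries with the same replicate number correlated at -0.0549 to 0.057 over 108 pairs, so numbers were not used as pairs. With values of 0 and 100 left out, no 2 libraries of a group had the same value in more than 0.0108% of windows. On simulated data with 50 windows each changed by 10, 15, 20 or 30 points between TET_KO and TET_WT on D0, among 444250, the fit called 11, 42, 47 and 50, and 6 unchanged windows. In the real contrast 92.9% of windows were called higher, so the adjustment was less strict there and the simulated rates do not carry over. Alternatives were centring on library medians, a logit scale, a replicate block, spread from the compared groups, other end and body windows, and leaving out each library.

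All 10 members were named. Of the other piRNA genes the 4 highest and 4 lowest end windows in TET_WT on D0 were named, and the 6 genes nearest the members' median profile. The members and lists were chosen with earlier results of these data known. Python 3.11.15 with pandas 2.3.3, numpy 2.4.6 and matplotlib 3.10.9 made the tables and figures. Other libraries of the study were not analysed here.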

Additional observations from a re-analysis of the deposited data

Results flagged for a closer look

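The D0 to D2 gain differed between lines in 6 end windows (20.8% of all genes) and 6 bodies (55.6%) for TET_KO against TET_WT, and in 9 (43.8%) and 9 (89.0%) for DNMT_WT against TET_WT, by the interaction contrast of limma. The body counts lay near the shares of all genes. Values are differences of gains in percentage points. At end windows the gain of TET_KO minus that of TET_WT was as follows: Piwil2 (-17.7, SE 2.72), Pld6 (-12.2, SE 3.35), Mov10l1 (-17.7, SE 3.70), Tdrd1 (-13.9, SE 2.89), Tdrd9 (-18.6, SE 3.66) and Ddx4 (-14.5, SE 3.32). The Tdrd9 call was lost on the logit scale (limma, adjusted p = 0.071), and without TET_WT D2 replicate 1 Pld6 was at -9.96, under 10 points. In bodies the same difference of gains was Piwil1 (-11.2, SE 1.77), Piwil2 (-14.9, SE 1.82), Piwil4 (-15.1, SE 1.74), Pld6 (-12.7, SE 2.19), Tdrd1 (-15.9, SE 1.94) and Tdrd9 (-12.8, SE 2.05). For DNMT_WT minus TET_WT the end windows gave Piwil1 (20.6, SE 3.31), Piwil2 (27.1, SE 2.72), Piwil4 (18.4, SE 2.92), Pld6 (18.9, SE 3.35), Mov10l1 (21.0, SE 3.70), Asz1 (12.9, SE 2.38), Tdrd1 (18.9, SE 2.89), Tdrd9 (27.5, SE 3.66) and Ddx4 (20.7, SE 3.32). The bodies gave Piwil1 (29.3, SE 1.77), Piwil2 (23.4, SE 1.82), Piwil4 (25.7, SE 1.74), Pld6 (12.5, SE 2.19), Mov10l1 (28.4, SE 2.10), Tdrd1 (30.5, SE 1.94), Tdrd9 (27.3, SE 2.05), Mael (24.5, SE 1.68) and Ddx4 (24.3, SE 1.68). Adjusted p ran from 5.6e-14 (Piwil1 body, DNMT_WT) to 0.0027 (Pld6 end window, TET_KO). Starting levels moved with these gains: on D0 the member bodies read 16.3 to 36.5% in TET_WT, 38.4 to 65.5% in TET_KO and 1.61 to 5.47% in DNMT_WT, and their part in the differences was not tested. Relative to the library medians, whose gains differed by -9.64 points for TET_KO and 19.92 for DNMT_WT, no end window of the TET_KO contrast was called, and in the DNMT_WT contrast none of the 9 listed was, while Mael, not among them, was called in the opposite direction at -16.2.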

How the results depend on the processing

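Calls on single members and counts of called members were recomputed under each alternative. The replicate block, a logit scale, a spread from the compared groups, all body windows and the window at the transcription start left every count of called members within 1.5 times its value, and the block changed no call (counts such as 10 end windows and 10 bodies for TET_KO minus TET_WT on D0 were unchanged). The logit scale lost the gain difference of Tdrd9 at its end window (adjusted p = 0.071). With the shortest window within 1 kb of a gene end, with or without missing values, the DNMT_WT count from D0 to D1 was 4 in place of 7. With windows wholly inside the body, 2 bodies rose in TET_KO from D0 to D1 in place of 0. No share of all genes is given for these recomputed counts.

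Centring each library on its median removed the shift shared by the table. No share of all genes is given for the centred counts. For TET_KO minus TET_WT on D0 the median end window of all genes differed by 14.1 points, also under the shift of 30.38. In TET_WT, TET_KO and DNMT_WT, called end windows were then 0, 0 and 0 over the first day and 1, 1 and 2 over the second, with 2, 2 and 3 for TET_KO against TET_WT on D0, D1 and D2, 1 and 1 for DNMT_WT against TET_WT on D0 and D1, and 0 and 1 for the gains. Called bodies were 0, 0 and 2 from D1 to D2 in TET_WT, TET_KO and DNMT_WT, 0 in TET_WT and DNMT_WT from D0 to D1, 0, 1 and 1 for TET_KO against TET_WT, 0, 1 and 0 for DNMT_WT against TET_WT, and 0 and 2 for the gains. Directions that turned, in points: end windows for TET_KO minus TET_WT on D0, Piwil1 -10.2, Pld6 -8.4, Mov10l1 -7.88, Asz1 -2.71, Tdrd1 -3.28 and Mael -16.9; from D1 to D2 in TET_WT, Piwil1 -4.67, Piwil4 -9.05, Pld6 -2.13, Mov10l1 -2.12, Asz1 -4.04 and Mael -10.0; in DNMT_WT, Piwil1 -5.88, Piwil4 -8.46, Pld6 -6.68, Mov10l1 -2.55, Asz1 -7.52, Tdrd1 -2.35 and Mael -28.6; DNMT_WT gain, Piwil4 -1.56, Pld6 -1.05, Asz1 -7.02 and Tdrd1 -0.975. Bodies gave, in the same order, Piwil2 -2.33, Piwil4 -1.41, Pld6 -8.3, Mov10l1 -5.02, Asz1 -2.11, Tdrd1 -1.3 and Tdrd9 -0.0456; Pld6 -3.46, Mov10l1 -2.26, Asz1 -4.28, Mael -0.713 and Ddx4 -3.44; Piwil2 -0.328, Pld6 -12.0 and Asz1 -10.2; Pld6 -7.46.

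Leaving out 1 library at a time gave these ranges of called members. At end windows the range was 3 to 6, 0 to 2 and 6 to 7 from D0 to D1 in TET_WT, TET_KO and DNMT_WT, 2 to 7 from D1 to D2 in TET_KO, 6 to 8 for TET_KO against TET_WT on D2, 9 to 10, 8 to 9 and 0 to 1 for DNMT_WT against TET_WT on D0, D1 and D2, and 5 to 8 for the TET_KO gain. In bodies it was 1 to 6 and 0 to 4 from D0 to D1 in TET_WT and TET_KO, 8 to 9 from D1 to D2 in TET_KO, 9 to 10 for TET_KO against TET_WT on D2, 9 to 10 and 0 to 1 for DNMT_WT against TET_WT on D1 and D2, and 9 to 10 for the DNMT_WT gain. For end minus body it was 4 to 5 in TET_WT and DNMT_WT on D2, 2 to 3 and 2 to 4 for TET_KO against TET_WT on D0 and D2, and 1 to 2 from D1 to D2 in TET_WT. No other count varied. The libraries behind moves of over 1.5 times are named beside the counts above. Values of 9 to 10 points whose adjusted p was under 0.05 missed only the size rule, so they are not evidence of no difference. An example is the Pld6 end window for TET_KO minus TET_WT on D2, at 9.75 points (limma, adjusted p = 0.00037). Of 50 simulated windows changed by 10 points, 13 passed the adjusted p and 11 were called. Few simulated windows changed, unlike the real table, so these rates do not carry over. Unknown coverage limits every value.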
